A study of Gallus gallus with 24 samples.

Results

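The costimulatory and inhibitory receptor genes CD28, CTLA4, ICOS, CD5 and LAG3 and the costimulatory ligand gene CD40LG were followed in PBMCs (the mononuclear cells of peripheral blood, most of them lymphocytes) of 6 chickens. The 6 genes were taken by their symbols, each of which stands on 1 entry of the deposited tables, out of 23910 genes in all. All 6 were among the 20266 genes with at least 2 reads over the libraries, which were tested. The birds were Cobb500 broilers at an age of 4 to 6 weeks, and no group carried a genetic change. After isolation, PBMCs of each bird were first kept until the next day in medium with chicken serum, penicillin and streptomycin. They were then cultured for 24 h in medium with chicken serum and without antibiotics, either untreated (control), with 3 bacteria per PBMC of the probiotic strain BS (Bacillus subtilis) or BV (Bacillus velezensis), or with conA (concanavalin A, a plant lectin that activates T cells) at 10 µg/ml. RNA of pooled duplicate cultures gave 1 library per bird and condition, 24 in all, so that each bird gave a library to every condition. The bacteria were added alive, and the cells were a mixture of blood cells and not sorted T cells.

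A T cell is activated when its receptor meets antigen and a second, costimulatory signal arrives at the same time. CD28 gives this signal when it binds CD80 or CD86 on an antigen-presenting cell, CTLA4 competes for the same ligands and dampens the response, and ICOS, the third member of this receptor family, binds ICOSLG. CD5 dampens signals from the T cell receptor, LAG3 is a relative of CD4 that restrains activated T cells in mammals, and CD40LG is the T cell ligand by which helper T cells stimulate B cells and other cells through CD40. ICOS, CTLA4 and CD28 stand side by side in this order in RefSeq's annotation of the chicken assembly GRCg7b, and LAG3 stands next to CD4. That annotation was used only for neighbours and overlaps of the genes, since the reads had been aligned to GRCg6a.

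The libraries held between 12170873 and 31242160 reads on genes (median 23952895). T cell RNA was followed with 12 marker genes, among them TCF7, BCL11B, CD3E, CD4, CD8A and LCK, all of which were detected. Their summed normalized counts, which are read counts divided by a size factor for each library, ranged between 137754 and 177977 in the control and between 154040 and 193787 after conA, and were higher after conA in 4 of 6 birds (p = 0.3125, exact paired permutation test, two-sided as are all others here). The largest parts of this sum, TCF7 and BCL11B, had means of 40935 and 34638 in the control and 51182 and 33609 after conA. Means of CD3E were 23387 and 23697, of CD4 3260 and 3141 and of LCK 6062 and 4925. The sum is thus weighted to its highest genes and is not a direct measure of T cell content. Sums of B cell, monocyte or macrophage, thrombocyte, heterophil, erythrocyte and NK or cytotoxic markers were also taken and are given together further below. In these bulk samples a change in the number of T cells and a change in RNA per T cell cannot be told apart.

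Of the 6 genes, LAG3, ICOS and CTLA4 rose after conA. A gene passed when its adjusted p in the quasi-likelihood test of edgeR was under 0.05, and was called when its log2 FC (log2 fold change) was also above 1.5 in absolute value. After conA, LAG3, ICOS and CTLA4, 3 of the 6 genes, passed and were higher, while 2.34% of all genes passed and 2.2% passed as higher. LAG3 alone was called, against 0.873% of all genes. When the chicken was a block the same 3 genes passed, where 6.12% of all genes passed. This count of 3 fell to 1 (LAG3) without chicken 3 in the fit that has no block.

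After BS and after BV, 0 of the 6 genes passed in the fit without a block. The background was as low, with 0% of all genes passing after BS and 0.00493%, a single gene, after BV. DESeq2 passed 0.107% of the genes it tested after BS and 0.0663% after BV, and none of the 6 genes. At an unadjusted p under 0.05 in edgeR were 0 of the 6 genes after either strain, against 3.14% of all genes after BS and 2.95% after BV. With the chicken as a block, CD28 and ICOS were at an unadjusted p under 0.05 after BS, 2 of 6 genes beside 10.8% of all genes. In the same blocked fit CD28, ICOS, CTLA4 and CD40LG were so after BV, 4 of 6 genes beside 10.9% of all genes, and all of these were higher than in the control. The blocked log2 FC after BS was 0.17 ± 0.055 (SE) for CD28 and 0.31 ± 0.11 for ICOS. After BV it was 0.20 ± 0.055 for CD28, 0.33 ± 0.11 for ICOS, 0.30 ± 0.11 for CTLA4 and 0.26 ± 0.09 for CD40LG. The SE given further below for these comparisons are those of the fit without a block. None of the 6 passed in this fit after adjustment over all genes, of which 1.04% passed after BS and 0.913% after BV, the lowest adjusted p being 0.0932 for CD28 after BV and 0.159 for CD28 after BS. The comparisons of BS, BV and conA share the same 6 control libraries.

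**Figure D1:**
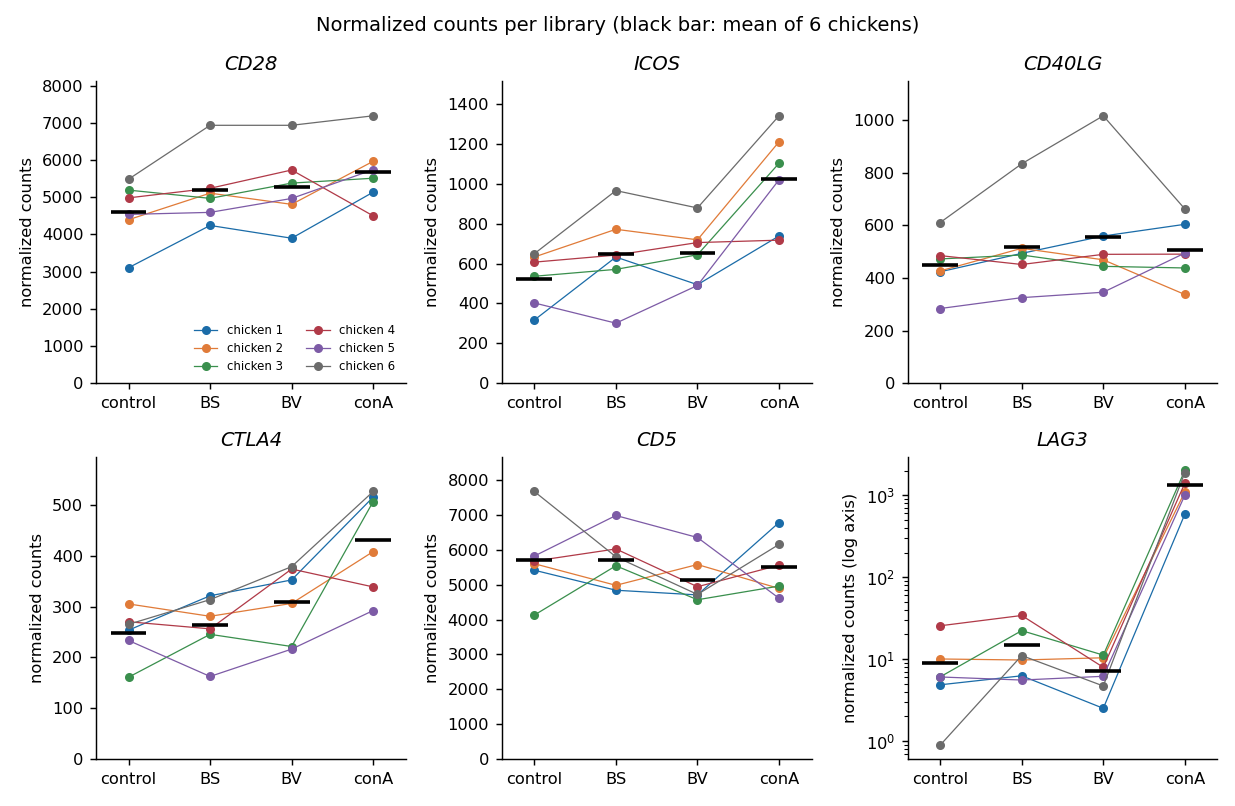
Normalized counts (y axis, log axis for LAG3 only) of the 6 genes in the control and after BS, BV and conA, with 1 point per library, a line and colour per chicken, and a black bar for the mean of 6 chickens. LAG3 lies between 0.887 and 34.03 in the 18 libraries without conA and between 588 and 2009 with conA, ICOS has its 6 conA libraries above all control libraries, and chicken 6 is the highest for CD28 and CD40LG in every condition.

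CD28, the receptor that gives the main costimulatory signal, differed little between conditions compared with its spread between birds. Its normalized counts in the control were 3104 at the lowest, 4759 at the median and 5482 at the highest (4614 ± 843, mean ± SD, n = 6). After BV they were 3897, 5172 and 6931 in the same order (5284 ± 1017, n = 6). After conA they were 4497, 5623 and 7186 (5671 ± 903, n = 6). All these ranges overlapped, with chicken 6 the highest in each condition and chicken 1 the lowest in each except conA. Within chickens, CD28 was higher after BV by 670 normalized counts in 6 of 6 birds (p = 0.03125, exact paired permutation test), and 3.15% of all genes were higher in 6 of 6 birds after BV. This p is the smallest that 6 pairs can give. Compared without the pairing the same difference had p = 0.255 in the exact permutation test. After BS, CD28 was higher in 5 of 6 birds, with chicken 3 lower, and after conA in 5 of 6 birds, with chicken 4 lower, and both differences had p = 0.09375 in the exact paired permutation test.

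In the fit across all genes, CD28 had a log2 FC of 0.17 ± 0.15 (SE) after BS, 0.20 ± 0.15 after BV and 0.30 ± 0.13 after conA, with adjusted p-values of 1, 1 and 0.358 in edgeR's test. Its log2 FC after conA had an adjusted p of 0.110 with the chicken as a block, and passed under 1 of 21 alternatives, the blocked fit without chicken 4 (adjusted p = 0.0297, edgeR).

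ICOS, which sustains helper T cell responses once they have begun, rose after conA in every bird. The control libraries held 317, 572 and 650 normalized counts at the lowest, median and highest (524 ± 136, n = 6). After BS they held 301, 638 and 966 (648 ± 221, n = 6), and after BV 490, 675 and 879 (655 ± 148, n = 6). After conA they held 718, 1062 and 1341 (1022 ± 252, n = 6). The lowest conA library was thus above the highest control library, whereas the BS and BV libraries overlapped with both. ICOS and LAG3 were the 2 of 6 genes whose conA libraries lay wholly above the control libraries, as did those of 1.89% of all genes. The log2 FC of ICOS after conA was 0.96 ± 0.20 (SE), a 1.95-fold increase with an adjusted p of 0.0121 in edgeR, and all 6 birds were higher. ICOS, CTLA4 and LAG3, 3 of the 6 genes, were higher after conA in 6 of 6 birds, as were 5.75% of all genes. The blocked fit gave an adjusted p of 0.00027, and over all 21 alternatives it ranged from 5.7e-05 to 0.564. It did not pass without chicken 3 (adjusted p = 0.088), without chicken 5 (0.0673) or when libraries were scaled by their totals alone (0.0639). In chickens 1 and 2 alone, whose conA libraries are numbered next to their control libraries, unlike those of chickens 3 to 6, the log2 FC was 1.07 with an adjusted p of 0.564, and in chickens 3 to 6 alone it was 0.93 with an adjusted p of 0.0194 (edgeR).

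The smaller differences of ICOS after the bacteria were alike in size. ICOS had a log2 FC of 0.31 ± 0.23 (SE) after BS and 0.32 ± 0.23 after BV, each with an adjusted p of 1 in edgeR. Within chickens it was higher after BV by 131 normalized counts in 6 of 6 birds (exact paired permutation test, p = 0.03125). After BS it was higher by 123 in 5 of 6 birds (p = 0.15625, exact paired permutation test), and chicken 5 was lower. The BS library of chicken 5 was the smallest of all, with 12170873 reads on genes and 163 reads of ICOS. In the blocked fit without chicken 5 the log2 FC of ICOS after BS was 0.40 (adjusted p = 0.0568, edgeR). With any 1 chicken left out of this fit the adjusted p ranged up to 0.718. As for CD28, the difference after BV was not past 0.05 when the pairing was not used (p = 0.143, exact permutation test).

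CD40LG, the helper T cell ligand of CD40, differed more between birds than between conditions. The control libraries held 284, 450 and 611 normalized counts at the lowest, median and highest (450 ± 106, n = 6). After BS they held 325, 490 and 834 (517 ± 169, n = 6), and after BV 346, 479 and 1016 (554 ± 237, n = 6). After conA they held 337, 492 and 662 (504 ± 116, n = 6). The 4 ranges overlapped, chicken 6 gave the highest library in each, and after BS and BV its library was the only one above the highest of the control. The log2 FC was 0.20 ± 0.25 (SE) after BS, 0.30 ± 0.25 after BV and 0.16 ± 0.18 after conA, with adjusted p-values of 1, 1 and 0.758 in edgeR. After conA, 4 of 6 birds were higher (p = 0.344, exact paired permutation test), and after BS and after BV 5 of 6 were (p = 0.09375 for each).

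CTLA4, the inhibitory receptor that shares its ligands with CD28, was higher after conA in every bird. The control libraries held 161, 260 and 306 normalized counts at the lowest, median and highest (248 ± 48.8, n = 6). After BS they held 163, 269 and 322 (264 ± 57.97, n = 6), and after BV 216, 330 and 379 (308 ± 73.9, n = 6). After conA they held 293, 458 and 527 (432 ± 100.5, n = 6). Only the lowest conA library, that of chicken 5, lay within the range of the control, and chicken 3 went from the lowest control library to one of the highest conA libraries. The log2 FC after conA was 0.80 ± 0.18 (SE), a 1.74-fold increase with an adjusted p of 0.0197 in edgeR. In the blocked fit the adjusted p was 0.0104, and over the 21 alternatives it ranged from 0.0018 to 0.402. CTLA4 did not pass without chicken 1 (adjusted p = 0.0556), without chicken 3 (0.108) or without chicken 6 (0.0913), nor in the blocked fit without chicken 6 (0.0527). Its log2 FC was 0.76 in chickens 1 and 2 alone and 0.83 in chickens 3 to 6 alone, with adjusted p-values of 0.402 and 0.0800 in edgeR.

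After BV, CTLA4 was higher by 60.2 normalized counts in 5 of 6 birds (p = 0.09375, exact paired permutation test), and its log2 FC was 0.31 ± 0.18 (SE, adjusted p = 1 in edgeR). After BS it was higher in 3 and lower in 3 birds, with a log2 FC of 0.09 ± 0.19 (SE, adjusted p = 1 in edgeR). With single chickens left out this log2 FC ranged from 0.01 to 0.17, the highest without chicken 5, whose small BS library held 88 CTLA4 reads. BS and BV were also compared with each other, at the same ratio of bacteria and the same time. CTLA4 was lower after BS than after BV in 5 of 6 birds, by 44.9 normalized counts on average (p = 0.0625, exact paired permutation test).

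CD5, which dampens signalling of the T cell receptor, had no common direction among the birds. The control libraries held 4127, 5639 and 7673 normalized counts at the lowest, median and highest (5719 ± 1138, n = 6). The libraries after BS (5695 ± 781, n = 6), BV (5144 ± 692, n = 6) and conA (5493 ± 840, n = 6) all had means below that of the control and overlapped with it. The highest library was that of chicken 6 in the control, of chicken 5 after BS and after BV, and of chicken 1 after conA. The log2 FC was -0.01 ± 0.13 (SE) after BS, -0.15 ± 0.13 after BV and -0.06 ± 0.13 after conA, with adjusted p-values of 1, 1 and 0.915 in edgeR. Its sign after BS turned to 0.01 with library totals alone and to 0.09 without chicken 6, and its sign after conA turned to 0.02 without chicken 6. In RefSeq's annotation of GRCg7b the span of CD5 overlaps that of VPS37C, and whether the counting used the strand is not given in the sources used here, so that reads of both genes may have been shared. The overlap was not checked for GRCg6a, to which the reads had been aligned.

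LAG3, an inhibitory receptor of activated T cells in mammals, had few reads without conA and was among the genes with the largest change after it. The 6 control libraries held between 1 and 31 reads each, 58 in all, which gave normalized counts of 0.887, 6.05 and 25.5 at the lowest, median and highest (8.89 ± 8.64, n = 6). After BS 94 reads were counted in all, with normalized counts of 5.54, 10.4 and 34.03 (14.8 ± 11.2, n = 6). After BV 47 reads were counted in all, with normalized counts of 2.503, 7.04 and 11.2 (7.13 ± 3.34, n = 6). Chicken 4 gave the highest library in the control and after BS, but not after BV. After conA 7915 reads were counted, and the normalized counts were 588, 1251 and 2009 (1332 ± 547, n = 6), so that the lowest conA library exceeded every other library many times over. The log2 FC after conA was 7.14 ± 0.47 (SE), a 141-fold increase, with limits of 73.6-fold and 272-fold at 2 SE on each side (adjusted p = 3.7e-06 in edgeR). It ranked 8 among the 20266 genes when ordered from the highest log2 FC. In single birds the ratio of normalized counts, with 0.5 added to each, ranged from 54.1-fold in chicken 4 to 1366-fold in chicken 6. The control library of chicken 6 held 1 read of LAG3. The limits above are for the fitted group means and do not span the single birds.

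LAG3 passed after conA under all 21 alternatives, with adjusted p-values between 5.7e-35 (DESeq2) and 0.0095 (chickens 1 and 2 alone). The log2 FC was 6.84 in chickens 1 and 2 alone and 7.25 in chickens 3 to 6 alone. The control library of chicken 4 held 31 of the 58 control reads, and without this chicken the log2 FC was 7.89. The low reads leave the differences after the bacteria imprecise. The log2 FC was 0.79 ± 0.53 (SE) after BS and -0.31 ± 0.60 after BV, each with an adjusted p of 1 in edgeR, and the value after BV turned to 0.42 without chicken 4. BS against BV gave LAG3 a log2 FC of 1.101 ± 0.55 (SE), with 4 of 6 birds higher after BS and an adjusted p of 1 in edgeR (unadjusted p = 0.0586).

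**Figure D2:**
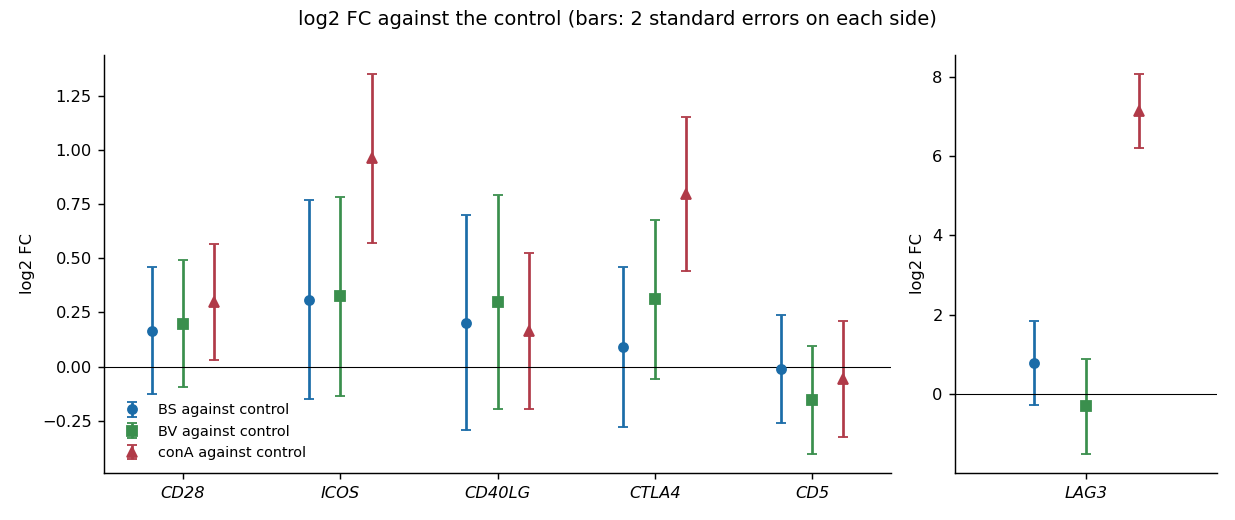
log2 FC against the control (y axis) of the 6 genes after BS (circles), BV (squares) and conA (triangles) from edgeR's fits without a block, with bars of 2 standard errors on each side and a wider y scale for LAG3. After conA the bars of LAG3 (7.14), ICOS (0.96), CTLA4 (0.80) and CD28 (0.30) lie above 0, CD28 without passing the adjustment over all genes. In this fit every bar after BS and BV reaches across 0. These bars include the spread between birds, since the fit does not use the pairing. With the chicken as a block the SE after BS and BV were smaller, such as 0.055 for CD28 after BV beside 0.15 here.

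The comparison of BS with BV gave no gene past the threshold. Of all 20266 genes 0% passed in edgeR, 1.12% were at an unadjusted p under 0.05, and DESeq2 passed 0 genes, and of the 6 genes 0 passed in each. The log2 FC of BS against BV was -0.03 for CD28, -0.02 for ICOS, -0.10 for CD40LG, -0.22 for CTLA4 and 0.14 for CD5. At 2 SE on each side, the limits were -0.33 and 0.26 for CD28, -0.47 and 0.44 for ICOS, and -0.59 and 0.15 for CTLA4. For CD40LG they were -0.59 and 0.40, and for CD5 -0.11 and 0.39. LAG3, given above with 1.101, had a lower limit of 0 to 2 decimals and an upper limit of 2.203, and in the blocked fit its unadjusted p was 0.0116 and its adjusted p 1 (edgeR).

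The order of the mean levels was the same for CD28, ICOS and CTLA4, with conA highest, then BV, then BS, and the control lowest. Of the neighbours in this order, ICOS after conA was above ICOS after BV in 6 of 6 birds (p = 0.03125, exact paired permutation test), and the other neighbours had p-values of at least 0.0625. For LAG3 the order was conA, BS, control and BV. Of these neighbours, LAG3 after conA was above LAG3 after BS in 6 of 6 birds (p = 0.03125, exact paired permutation test). The other neighbours of LAG3 had p-values of at least 0.125. For CD5 (control, BS, conA, BV) and CD40LG (BV, BS, conA, control) the neighbours had p-values of at least 0.344. In all, 36 such tests were made, 6 pairs of conditions for each gene, and 10 of these exact tests had p = 0.03125. These p-values were not adjusted. They were reached by LAG3 and ICOS after conA against each other condition, and by CTLA4 after conA against control and BS. CD28 and ICOS after BV against control gave the rest. All tests with conA share the same 6 conA libraries. Of all genes 5.75% were higher in 6 of 6 birds after conA than in the control, and 3.15% after BV. Such shares were not taken for conA against BS or BV.

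The balance between the receptors was read from ratios within a library, which do not depend on the library total. ICOS reads per 100 CD28 reads were 11.3 ± 1.94 in the control and 17.9 ± 2.33 after conA (SD, n = 6). The ratio was higher after conA in 6 of 6 birds, by 0.66 on the log2 scale (p = 0.03125, exact paired permutation test). It was also higher after BV in 6 of 6 birds, by 0.14 (12.4 ± 1.63 reads, exact p = 0.03125), whereas after BS it was higher in 5 of 6 birds (12.4 ± 3.20 reads, exact p = 0.46875). CTLA4 reads per 100 CD28 reads were 5.61 ± 1.76 in the control, 5.17 ± 1.35 after BS, 5.99 ± 1.80 after BV and 7.68 ± 1.76 after conA (SD, n = 6). This ratio was higher after conA in 4 of 6 birds, by 0.48 on the log2 scale (p = 0.125, exact paired permutation test). CTLA4 reads per 100 ICOS reads were 50.3 ± 17.2 in the control and 44.1 ± 14.5 after conA, with 2 of 6 birds higher (exact p = 0.46875). The ratios with ICOS were added after the values of the genes had been seen.

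**Figure D3:**
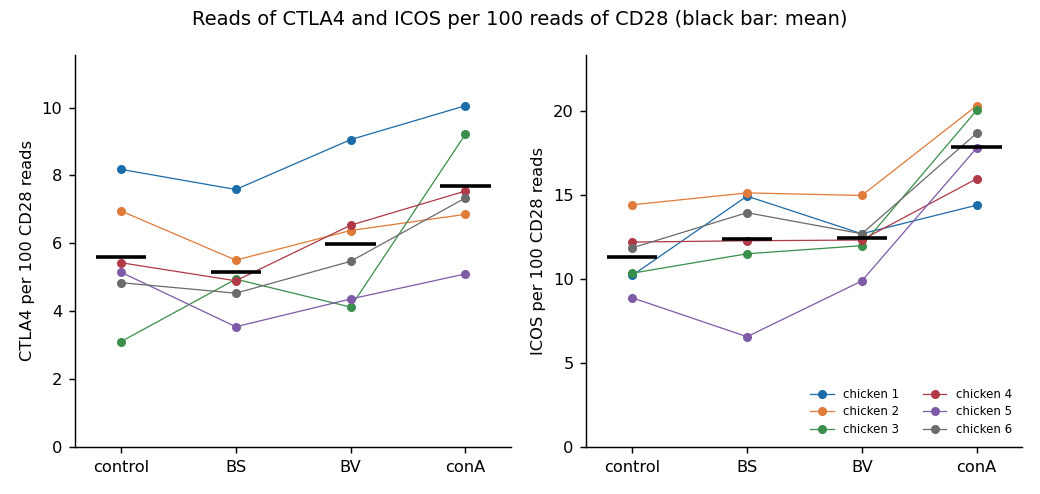
CTLA4 reads (left y axis) and ICOS reads (right y axis) per 100 reads of CD28 in the control and after BS, BV and conA, with 1 point per library, a line and colour per chicken and a black bar for the mean. The mean of ICOS goes from 11.3 in the control to 17.9 after conA and all 6 lines rise between these conditions, while the mean of CTLA4 goes from 5.61 to 7.68 with overlapping points.

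Marker sums of other cell types were compared between conA and the control. The summed normalized counts of 7 thrombocyte markers were between 966 and 97622 in the control and between 674 and 15763 after conA, lower in 5 of 6 birds (p = 0.0625, exact paired permutation test), and the sum of the 3 NK or cytotoxic markers found was between 192 and 248 in the control and between 247 and 617 after conA, higher in 6 of 6 birds (p = 0.03125). B cell markers, 7 entries found of 8, summed to between 1021 and 1823 in the control and between 1464 and 2696 after conA, higher in 5 of 6 birds (p = 0.0625, exact paired permutation test). Monocyte or macrophage markers summed to between 1439 and 2871 in the control and between 1440 and 3234 after conA, and heterophil markers, 4 found of 7, to between 134 and 500.0 and between 97.8 and 386 (exact p = 0.9375 and 0.1875). These sums too are weighted to their highest genes, and 6 NK or cytotoxic markers had been listed. Among those found, mean normalized counts of GNLY were 139 in the control and 250 after conA. Means of FASLG were 81.7 and 125, while those of GZMA were 3.26 and 1.73. In the B cell sum, BLK had means of 296 and 608 and PAX5 of 108 and 119. None of these markers was at 0 in all libraries, and their part in the results was not tested. Taken per 1000 normalized counts of the T cell markers, LAG3 was 140-fold higher after conA, and CTLA4 was 1.64-fold higher in 6 of 6 birds (p = 0.03125, exact paired permutation test). ICOS was 1.86-fold higher on this scale in 5 of 6 birds, with an exact p of 0.0625, and chicken 4 was lower. The T cell marker sum behind this scale has TCF7 as its largest part. It also includes ZAP70, which itself passed after conA (adjusted p = 0.0087 in edgeR), and LEF1. The latter passed after conA with the chicken as a block (adjusted p = 0.00089 in edgeR, 0.0572 without it). After BS and BV, the sums of B cell markers and of erythrocyte markers exceeded those of the control in 6 of 6 birds (p = 0.03125 for each, exact paired permutation test). Per T cell marker count CD28 and ICOS were higher after BV in 6 of 6 birds (exact p = 0.03125 for each). CD4, which is part of that sum, itself passed as higher after BV in the blocked fit (adjusted p = 0.0139 in edgeR).

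Over the 24 libraries, with each chicken's mean taken out, log2 levels of CTLA4 and ICOS had a Pearson's r of 0.82, ICOS and LAG3 0.81, and CD28 and ICOS 0.79. Over the 18 libraries without conA the values of these pairs were 0.59, 0.28 and 0.84. Over all 24 libraries CD5 had negative values with CD40LG (-0.42), ICOS (-0.33) and CD28 (-0.28). Over the 18 libraries without conA these were -0.56, -0.51 and -0.54. These coefficients are descriptions, since the libraries share chickens, treatments and size factors.

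The genes whose pattern was most like each of the 6 were sought in the same way among 8007 genes with a symbol and a mean of at least 100 normalized counts. Most like LAG3 were HIVEP3 (r = 0.98), a zinc finger gene, TNFRSF9 (0.98), which encodes the costimulatory receptor 4-1BB, and ATP10A (0.98), a lipid flippase gene. Their log2 FC after conA was 1.34, 2.60 and 1.70. LAG3 had few reads without conA, so that these r mostly follow the step between conA and the other conditions. For ICOS they were BRE (0.94), CD44 (0.93), the receptor for hyaluronan, and TM7SF3 (0.92), and for CTLA4 TRAF5 (0.91), a signalling adaptor, LRRC8D (0.90), an anion channel subunit, and CYTH4 (0.89). CD28 was most like WIPF1 (0.91), a regulator of the actin skeleton, ARHGAP15 (0.90) and FAM49A (0.86). For CD5 they were FBXL14 (0.93), PLIN4 (0.93) and JAK3 (0.92), the kinase of the common gamma chain receptors. CD40LG had the weakest likeness, with SPP1 (0.80), the osteopontin gene, PRDX1 (0.76) and KCNQ5 (0.74). Without the centring on the chicken, 1 of these 18 genes was again among the first 3.

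Among the binding partners of the receptors, CD86 and ICOSLG rose after conA. In all, 2 of 6 partner genes tested passed and were higher and 0 were lower, while 2.34% of all genes passed and 2.2% passed as higher. The median log2 FC of the 6 partner genes was 0.42, beside -0.03 over all genes. These shares, and 6.12% of all genes passing in the blocked fit, are also the background of the conA counts for the lists below. CD86, the ligand of CD28 and CTLA4 on antigen-presenting cells, had 10 reads over the 6 control libraries and 88 after conA (log2 FC 3.07 ± 0.74 SE, adjusted p = 0.0203 in edgeR). ICOSLG, the ligand of ICOS, went from 42.6 ± 15.8 to 108 ± 42.9 normalized counts after conA (SD, n = 6, log2 FC 1.34 ± 0.33 SE, adjusted p = 0.0382 in edgeR). ICOSLG was also higher after BS at 90.3 ± 32.6 and after BV at 97.5 ± 26.4 normalized counts (SD, n = 6). These differences had adjusted p-values of 0.800 and 0.802 in edgeR and passed with the chicken as a block, at 0.00687 after BS and 0.00129 after BV. Of all genes 1.04% passed after BS and 0.913% after BV in the blocked fit. In that fit 2 of 7 B cell markers also passed as higher after each strain. They were PAX5 (adjusted p = 0.0016 after BS and 0.00058 after BV, edgeR) and EBF1 (0.0087 and 0.0056). Mean normalized counts of PAX5 were 108 in the control, 189 after BS and 197 after BV. Whether ICOSLG moved with B cell RNA was not tested. CD80, CD40, FGL1 and LGALS3 did not pass in any of these comparisons without a block.

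Several other costimulatory receptor genes rose after conA. Of 9 tested, 5 passed and were higher and 0 were lower, with a median log2 FC of 0.74. TNFRSF18, which encodes GITR, a receptor found on activated and regulatory T cells, went from 153 ± 10.4 to 1639 ± 681 normalized counts (SD, n = 6, log2 FC 3.42 ± 0.26 SE, adjusted p = 4.2e-06 in edgeR). TNFRSF9 went from 812 ± 128 to 4921 ± 1715 (log2 FC 2.60 ± 0.21 SE, adjusted p = 5.1e-06). TNFRSF4, which encodes OX40, had a log2 FC of 1.64 ± 0.36 (SE, adjusted p = 0.0334), and HAVCR1, which encodes TIM-1, had 1.53 ± 0.37 (adjusted p = 0.0382). TNFRSF4 had an adjusted p of 0.0604 in edgeR's blocked fit. After BS and BV none of these 4 genes passed, with log2 FC between -0.02 (TNFRSF4 after BS) and 0.44 (TNFRSF18 after BV). Of 14 other inhibitory receptors and ligands listed only CD200, CD200R1 and VTCN1 were found by symbol, and 0 of 3 passed after conA. With the chicken as a block CD200R1 alone passed, as lower. In that fit 5 of 7 thrombocyte markers passed as lower too, and whether CD200R1 moved with them was not tested.

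Of 14 proximal signalling genes 3 passed after conA without a block, all higher, and the list's median log2 FC was 0.05. They were PTPN22 (log2 FC 0.75 ± 0.10 SE, adjusted p = 0.00018 in edgeR), a phosphatase that restrains T cell receptor signalling, and the kinases ZAP70 (0.56 ± 0.11, adjusted p = 0.0087) and FYN (0.54 ± 0.10, adjusted p = 0.0050) that carry it. The blocked fit passed 4 as higher and 1 as lower, adding the phosphatase PTPN6 (adjusted p = 0.0019 in edgeR) as higher and CBL (0.0231), a ubiquitin ligase that restrains signalling, as lower. Of 9 genes in the list named CD40 signalling 4 passed, all higher, with a median of 0.44. They were TNFAIP3 (0.86 ± 0.13 SE, adjusted p = 0.00093), an inhibitor of NF-kB signalling, and the adaptors TRAF3 (0.73 ± 0.16), TRAF5 (0.66 ± 0.14) and TRAF1 (0.44 ± 0.11). In the blocked fit 6 of 9 passed, all higher, with TRAF2 (adjusted p = 0.0130 in edgeR) and NFKB2 (0.0038) added. CD40LG and CD40 themselves passed in neither fit (adjusted p = 0.758 and 0.527 in edgeR without a block). Signalling through CD40 itself was not tested.

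Among 13 transcription factors of activated T cells 6 passed after conA, all higher, with a median log2 FC of 0.37. EGR2, a factor induced by T cell receptor signals, went from 18.1 ± 13.3 to 900.5 ± 355 normalized counts (SD, n = 6, log2 FC 5.61 ± 0.41 SE, adjusted p = 5.9e-06 in edgeR). EGR3 had a log2 FC of 3.10 ± 0.36 (SE), IRF4, which drives effector differentiation, 1.81 ± 0.21, and NR4A3 3.59 ± 0.80 (adjusted p = 0.0478 in edgeR and 0.0619 with the chicken as a block). Of 6 activation markers 3 passed, all higher, with a median of 0.63. IL2, the growth factor of T cells, had 2 reads in all control libraries and 222 after conA. IL2RA, its receptor chain, went from 635 ± 145 to 1099 ± 132 normalized counts (log2 FC 0.79 ± 0.14 SE, adjusted p = 0.0023), and MYC had 0.43 ± 0.10 (adjusted p = 0.0252). The blocked fit added CD44 as higher (adjusted p = 0.00018 in edgeR). After BS and BV 0 genes of these lists passed without a block, at a background of 0% and 0.00493% of all genes. With the chicken as a block, IL2RA passed after BS (adjusted p = 0.0012 in edgeR) and after BV (0.00073), as did TOX (0.0488 and 0.0418), and CBLB passed after BV (0.0299). The background in this fit was 1.04% of all genes after BS and 0.913% after BV.

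**Figure D4:**
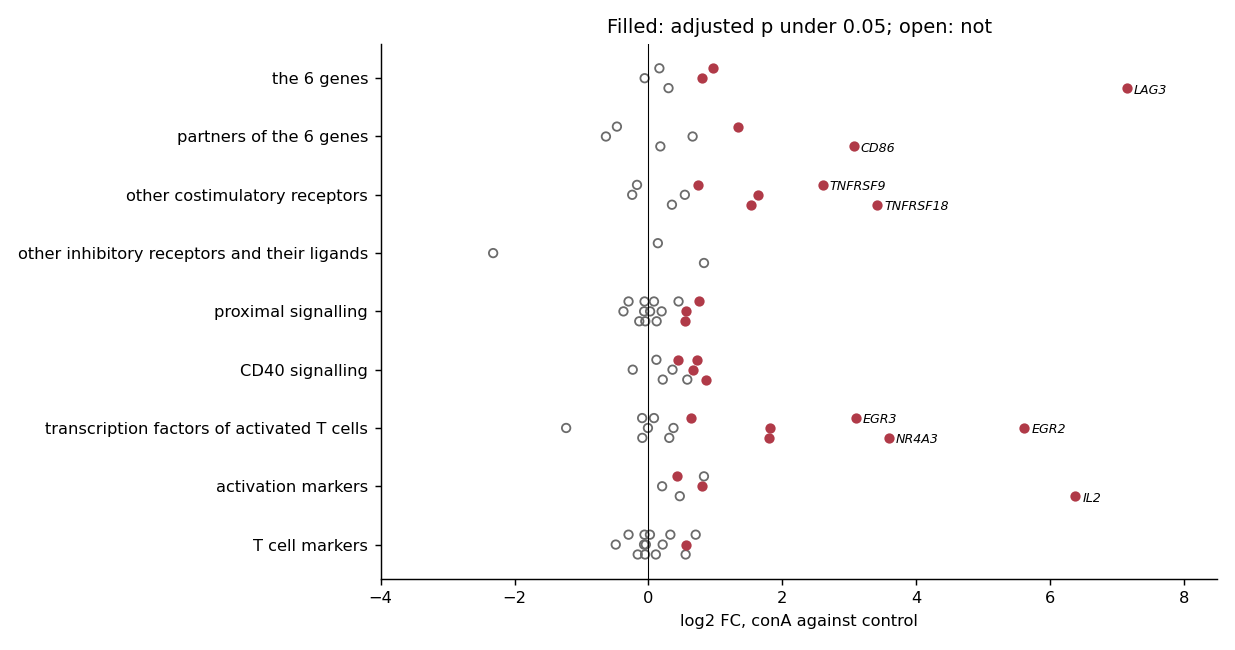
log2 FC after conA against the control (x axis) for the 6 genes, the lists of genes around them and the T cell markers (rows), with 1 point per entry, filled where the adjusted p of edgeR was under 0.05 and open where it was not. LAG3 (7.14), IL2 (6.38) and EGR2 (5.61) lie farthest to the right, and of the T cell markers 1 of 14 entries, ZAP70, is filled.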

How the data were processed

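Total RNA of PBMCs from 6 chickens was sequenced after 24 h in 4 conditions. Per the labels and the methods of the study, stranded libraries were made with the SMARTSeq kit and aligned to GRCg6a, and the submitters' processing notes name bcl2fastq 2.20, FastQC 0.11.5, STAR 2.7.3, DESeq2 1.24.0 and R 3.6.1. For the counting tool, its strand setting and the annotation release the sources used here give no name. The deposited count table holds the authors' read counts per gene (23910 genes). The deposited normalized signal per gene (20266 genes) equals the count divided by a size factor per library to within a relative deviation of 5.11e-15. Every sample column was used.

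Genes with at least 2 reads over the 24 libraries were tested on the counts with edgeR 4.0.16 (R 4.3.3) by glmQLFTest after a robust glmQLFit and TMM scaling, with Benjamini-Hochberg adjustment over all 20266 genes, with control, BS and BV in 1 fit of 18 libraries and control and conA in a fit of 12. No term for the chicken was used, as the study's methods name none. Standard errors were obtained as log2 FC over the root of the F statistic. The scripts were tested on simulated data. Alternatives were the chicken as a block, DESeq2 1.42.0, DESeq2 size factors or library totals in edgeR, filterByExpr, no filter, all 24 libraries in 1 fit, each chicken left out with and without the block, and chickens 1 and 2 or 3 to 6 alone, since the conA libraries of chickens 3 to 6 carry numbers apart from their other libraries. The replicate numbers of the labels were taken to pair the samples, since the study's methods describe cells of each chicken under every condition. Deviations of same-numbered libraries from the group means had correlations of at least 0.386 for BS and control, at least 0.506 for BV and control, and -0.034 to 0.768 for conA and control, over 13024 genes. Libraries of different birds had medians of -0.198, -0.267 and -0.091 in the same order. Their highest values were 0.567, 0.565 and 0.504, so that the lowest values of the same bird lay below them. The correlations alone thus do not show the pairing of every bird, and the tests within chickens rest on the numbers.

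Normalized counts were compared within chickens with two-sided exact paired permutation tests, whose smallest p with 6 pairs is 0.03125. Ratios of reads had 0.5 added to each count. Likeness was Pearson's r of log2(normalized count + 1) centred on the chicken. Tools were Python 3.11.15, pandas 2.3.3, numpy 2.4.6, matplotlib 3.10.9 and scipy 1.17.1. All 6 genes are named throughout, and of each list up to 4 of those that passed after conA, taken by the size of their log2 FC, and the first 3 genes by likeness. ICOSLG, IL2RA, TOX, CBLB, PAX5, EBF1 and CD4 in the blocked fits of BS and BV were named after their values were seen. So were CD200R1, PTPN6, CBL, TRAF2, NFKB2, CD44 and LEF1 in that of conA, and the single genes named from the NK or cytotoxic and B cell sums. The genes and lists were chosen with earlier results of these data known. Lists were matched by symbol, with 3 older symbols (CATH1, CATH2, MRC1L-B) matched by hand. Gene lengths were not used, so levels of different genes were not compared. Sequences were not used here.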

Additional observations from a re-analysis of the deposited data

Results flagged for a closer look

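Of the 24 groups of 6 libraries, 6 genes in 4 conditions each, 4 had a library far from the others by Dixon's test. By chance about 1 of 20 separate groups of normally distributed values would. The groups here share the same 6 birds, so that they are not separate. Chicken 6 gave 3 of the 4 libraries. Its CD28 level after BS was 6931 normalized counts, and its CD40LG level was 834 after BS and 1016 after BV, the highest library of each group. Chicken 4 gave the fourth, with a LAG3 level of 25.5 normalized counts in the control, where libraries held only 1 to 31 reads of LAG3. Without chicken 6 the log2 FC of CD28 after BS was 0.12, and that of CD40LG was 0.12 after BS and 0.15 after BV.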

How the results depend on the processing

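The chicken as a block, which uses the pairing, moved the number of genes that passed and changed no call among the 6 genes. With it, 210 genes passed after BS (36 called), 185 after BV (28 called) and 1240 after conA (491 called). When single chickens were dropped from the blocked fit, 99 to 212 genes passed after BS (21 to 37 called), 62 to 173 after BV (10 to 33 called) and 729 to 1153 after conA (367 to 485 called). DESeq2 passed 17 genes after BS (13 called), 11 after BV (9 called) and 773 after conA. Library totals alone passed 1 gene after BS (1 called) and all 24 libraries in 1 fit passed 2 (2 called), and the single gene after BV was lost (0 genes) with DESeq2 size factors, library totals, no filter, all 24 libraries, any chicken left out, chickens 1 and 2 alone and chickens 3 to 6 alone. For conA, leaving out a chicken without the block gave 265 to 505 genes (122 to 171 called) and 1 to 3 of the 6 genes, or 2 to 4 with the block, and chickens 1 and 2 alone gave 28 genes (28 called) and 1 of the 6. The sign turned for CD5 after BS and conA, for LAG3 after BV, and for CD28, ICOS and CD5 in BS against BV. The cause was not tested. CD5 after BS had a log2 FC of 0.0076 with library totals alone and 0.053 in chickens 3 to 6 alone, and -0.084 to 0.088 with a chicken left out (-0.088 to 0.086 with the block). CD5 after conA had 0.11 in chickens 1 and 2 alone and -0.14 to 0.020 with a chicken left out (-0.12 to 0.017 with the block). LAG3 after BV ranged from -0.56 to 0.42 (-0.57 to 0.33 with the block). For BS against BV, chickens 1 and 2 alone gave 0.11 for CD28, 0.21 for ICOS and -0.062 for CD5, and ICOS ranged from -0.069 to 0.058 with a chicken left out (-0.099 to 0.060 with the block). The difference of CD5 within chickens after BS was 0.00646 on the log2 scale and 1.37 in CPM, and -311 to 346 normalized counts with a chicken left out, and after conA it was -545 to 32.6. That of LAG3 after BV was 0.023 on the log2 scale and -3.13 to 1.41 with a chicken left out. Without centring, 1 of 18 most similar genes was found again. Of 36 exact tests within chickens, which share libraries, 10 reached p = 0.03125. On the log2 scale 10 did, in CPM 8 and per T cell marker count 7, and 9 unpaired tests were past 0.05. With 5 birds no paired test can go below 0.0625. The reads of LAG3 without conA, 47 to 94 per condition, limit what can be said of it after BS and BV.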
